A study of Homo sapiens with 5 samples.

Results

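The genes described here differed at least 2-fold from the pUC19 control, in the same direction, in all 4 libraries of HEK293T cells that expressed a dCas9 fusion. A gene was a member when (TPM + 0.1) in the fusion library divided by (TPM + 0.1) in the pUC19 library was at least 2, or at most its inverse, in each of the 4. TPM is the read count divided by the transcript length and scaled so that every library has the same total. Of 19716 genes with a read in any library, 658 were members, of which 180 were higher and 478 lower in the fusions. At a mean of at least 1 TPM over the 5 libraries, 324 members remained of 13921 genes, 113 of them higher and 211 lower.

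The cells were HEK293T, derived from human embryonic kidney and expressing a viral large T antigen, and RNA was sequenced 48 hours after transfection with 1 ug of plasmid. The fusion groups were dCas9-BFP-EGFP and 3 methyltransferase fusions, dCas9-BFP-DNMT3A, dCas9-BFP-DNMT3B and dCas9-BFP-DNMT1, each expressed from a plasmid with a PGK promoter and given together with 5 guide RNAs against the uPA promoter (uPA is the product of PLAU). The control cells received pUC19, a cloning plasmid without dCas9, BFP or a guide, and blue fluorescent cells were sorted before RNA extraction, so how the control cells were gated is unclear. Each group was 1 library. Expression of dCas9, guide RNAs, BFP and the larger plasmid were therefore shared by the 4 fusions and absent from the control, and they cannot be told apart from one another or from whatever was particular to the single pUC19 library.

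dCas9 is a Cas9 that binds DNA where a guide directs it but does not cut. DNMT1 is the maintenance DNA methyltransferase, DNMT3A and DNMT3B are the de novo methyltransferases, and EGFP served as the fusion partner with no methyltransferase activity. In the paper the DNMT3A and DNMT3B fusions with the uPA guides raised methylation of the uPA promoter, while the DNMT1 and EGFP fusions did not. The comparison among fusions below groups them in that way. Several of the members belong to stress programmes of mammalian cells. In the integrated stress response, kinases phosphorylate the translation factor eIF2 alpha, general translation falls and the transcription factor ATF4 is made, which with CEBP family partners switches on genes such as TRIB3 and DDIT3. The oxidative stress response works through NRF2, and the heat shock response through HSF1, which induces chaperones. Cholesterol synthesis genes are under the control of SREBP2, and many genes of ribosome assembly and nucleotide synthesis are targets of MYC.

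The 4 fusion libraries held 27.7 M (DNMT1), 29.4 M (DNMT3A), 27.2 M (DNMT3B) and 26.2 M (EGFP) reads, and the pUC19 library 36.1 M (M, mega). The fused methyltransferase matched each label, with DNMT1 at 14582 TPM in its own library and 155.8 to 175.5 TPM in the others, DNMT3A at 16745 against 12.0 to 21.3 TPM, and DNMT3B at 33141 against 34.2 to 45.1 TPM. VIM lay between 437.4 and 599.2 TPM, and the kidney lineage genes PAX2, LHX1 and EYA1 between 3.38 and 8.46 TPM. PTPRC of leukocytes, ALB of hepatocytes and MYH6 of heart muscle were at most 0.43 TPM in every library. HBA1 of red cells was at most 1.12 TPM, and COL1A1, a collagen of fibroblasts, lay between 3.87 and 7.97 TPM, with pUC19 the highest. Over all genes of at least 1 TPM the median log2 ratio to pUC19 was -0.14 in the DNMT1 library and between -0.02 and 0.00 in the other three. In the DNMT1 library the inducible chaperone gene HSPA1B stood at 1961 TPM, against 129.6 to 234.0 TPM in the other fusions and 251.5 TPM in pUC19.

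PLAU, the gene whose promoter the guides addressed, was itself a member on the lower side. Guide T2 is shown because its site places the guides on the gene, and the other guides were not analysed here. The guide is in lower case and its PAM, the GGG that Cas9 needs beside the site, in capitals.
T2: gagccgggcgggagagggag GGG
It matched GRCh37 chr10:75670819-75670838 on the plus strand, upstream of the annotated PLAU transcript start at 75670890, from 71 to 52 bases before it. PLAU had 6 reads in the DNMT1 library, 6 in DNMT3A, 1 in DNMT3B and 4 in EGFP, against 106 in pUC19. As RPM, reads scaled to the library total, this was 0.217 (95% exact binomial interval 0.0794 to 0.471) in DNMT1 and 0.204 (0.0748 to 0.444) in DNMT3A. DNMT3B and EGFP were at 0.0368 (0.0009 to 0.205) and 0.152 (0.0415 to 0.390), against 2.93 (2.40 to 3.55) in pUC19. None of the 4 intervals reached that of pUC19, and the 4 overlapped one another. The intervals cover counting error only. The gene fell short of 1 TPM on average and is left out of the counts below.

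The members formed 2 sets of unequal size and similar fold. In these bulk samples fewer cells with a transcript and less RNA per cell cannot be told apart. Higher members were 0.812% and lower members 1.52% of the 13921 genes of at least 1 TPM. The median level of the 113 higher members was 4.75, 5.50, 5.08 and 5.83 TPM in the DNMT1, DNMT3A, DNMT3B and EGFP libraries, against 1.39 TPM in pUC19. The median of the 211 lower members was 4.26, 4.08, 3.88 and 4.67 TPM, against 12.8 TPM in pUC19. In the library where a member differed least, the median fold was 2.35 for the higher and 2.32 for the lower set. At least 3-fold in all 4 fusions were 29 higher and 44 lower members, and at least 4-fold 9 and 12. At the edge of the rule stood HHIP, a hedgehog-binding protein, at 5.11, 5.76, 5.57 and 7.17 TPM against 2.50 TPM in pUC19, and just outside it DKK3, a Wnt pathway protein, at 6.33, 7.14, 8.27 and 7.36 against 3.12 TPM. On the lower side ZNF37BP was just inside, at 6.66, 6.48, 6.86 and 6.47 against 13.9 TPM, and NXT2, an mRNA export factor, just outside, at 8.13, 6.51, 8.35 and 8.06 against 16.8 TPM.

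Counting error alone was small for the members above 1 TPM. A member was clear of counting error when a 95% interval for that error set it apart from pUC19 in every fusion. This held for 107 of the 113 higher and 199 of the 211 lower members. The members were chosen on the same reads, so most would be clear by that choice. These counts add no evidence for the members. Among the 334 members under 1 TPM this was rarer. Of the lower ones, 122 had no read in any fusion and 87 had at most 3 reads in pUC19, the deepest library, and 28 of the higher ones had no read in pUC19. Those genes are not described further.

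Variation between replicates could not be measured, since each group was 1 library. In an edgeR quasi-likelihood fit that treated the 4 fusions as one group and assumed that the lone pUC19 library varies as they do, 0.0937% of 16001 genes were called higher (15 genes) and 0.644% lower (103 genes) at an adjusted p below 0.05. Of the members of at least 1 TPM that were tested, 11 of 110 higher and 96 of 201 lower genes were called. The rule used the same contrast, so these calls add no evidence for the members and are given only to show how far the spread among fusions allows a call. An unadjusted p below 0.05 was reached by 2879 genes. The balance of directions depended on the method, since DESeq2 called 544 genes higher and 497 lower, and edgeR without the filter on low counts 65 and 187.

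Among higher members of at least 5 TPM, HMOX1, RIBC2 and NUPR1 led by the fold in their least changed library. HMOX1, the haem oxygenase that degrades haem (GRCh37 chr22:35777089-35790200, plus strand, 5 exons), reached 362 TPM in the DNMT1, 734 in the DNMT3A, 1155 in the DNMT3B and 401 in the EGFP library, against 58.5 TPM in pUC19. RIBC2 stood at 29.0, 61.8, 52.7 and 34.2 TPM against 7.32 TPM. For both genes DNMT3A and DNMT3B lay above DNMT1 and EGFP, and all 4 above pUC19. NUPR1, a small stress-induced chromatin protein (chr16:28544029-28550295, minus strand, 3 exons), was closer between fusions, at 21.6, 26.9, 19.3 and 21.1 TPM against 5.22 TPM.

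The other genes at the head of the higher set had lower levels. MAP1A, a microtubule-associated protein of neurons, stood at 26.1, 33.7, 35.2 and 30.4 TPM against 7.21 TPM in pUC19. GPR19, an orphan receptor, was at 5.79, 8.11, 9.27 and 7.16 against 1.55 TPM, and FUT1, the fucosyltransferase that makes the H antigen, at 8.46, 9.50, 7.84 and 13.3 against 2.30 TPM. AKNA, a centrosomal protein with an AT-hook, was at 10.1, 6.26, 6.20 and 14.4 against 1.71 TPM. TEX19, a gene of the germ line and placenta, was at 3.02, 14.6, 11.8 and 5.90 against 0.932 TPM. NOL3, an inhibitor of apoptosis, FAM129A, a stress protein also called NIBAN1, and IL20RB, a chain of the receptors for IL-20 and IL-24, lay between 4.13 and 18.3 TPM in the fusions and between 1.36 and 2.92 TPM in pUC19. In this group FAM129A, AKNA and FUT1 were highest with EGFP, and TEX19 and IL20RB highest with the DNMT3 fusions.

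**Figure D1:**
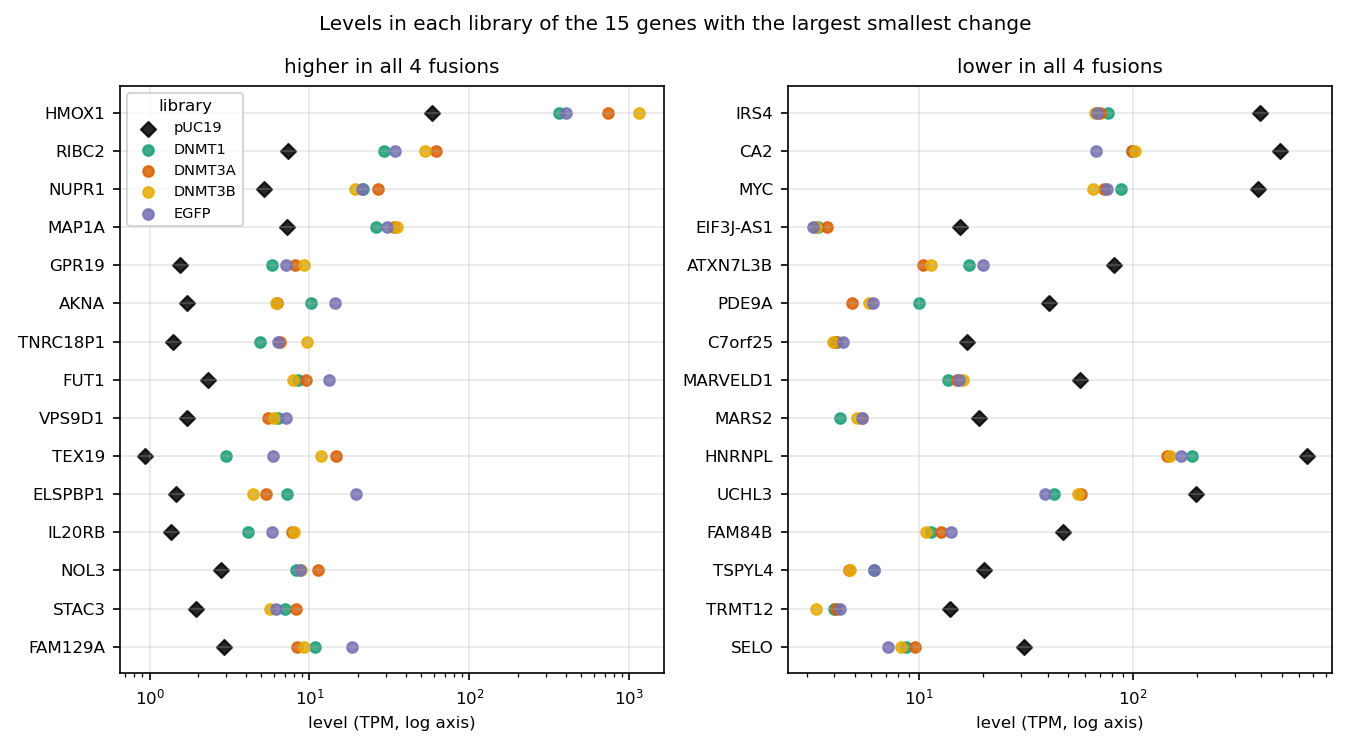
Level of the 15 higher and 15 lower members with the largest fold in their least changed fusion, among members of at least 5 TPM on average. Each point is 1 library, and the horizontal axes are TPM on a log scale. Every fusion lies on one side of the pUC19 diamond, which is how the genes were chosen. HMOX1 spreads from 362 to 1155 TPM over the fusions, while IRS4 spreads from 66.3 to 76.5 TPM.

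Of 70 lists of pathway and class genes, 31 held no member, 13 held higher members only, 16 lower members only and 10 both, and 105 of the 324 members were in any list. All genes of at least 1 TPM held 0.81% higher and 1.52% lower members, the background for each list below. Integrated stress response genes were the list with the most higher members. It held 6 of 27 genes of at least 1 TPM and no lower member, where 113 of all 13921 genes were higher. The median of the list's log2 ratios, each taken as the median over the fusions, was 0.41, against -0.04 for all genes. In all 4 fusions 19 of the 27 lay above and 2 below pUC19.

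The 6 members act at different points of the response. TRIB3, a pseudokinase that restrains ATF4 (chr20:361404-378203, plus strand, 4 exons), stood at 115.6, 86.9, 84.5 and 96.8 TPM in the DNMT1, DNMT3A, DNMT3B and EGFP libraries, against 35.97 TPM in pUC19. PPP1R15A, also called GADD34, brings a phosphatase to eIF2 alpha and so ends the response. It stood at 60.0, 78.7, 70.5 and 47.0 TPM against 21.5 TPM. NUPR1 is given above, and JDP2, a basic leucine zipper repressor, was at 13.4, 13.8, 17.4 and 17.1 TPM against 6.15 TPM. The 2 secreted factors of the list, FGF21 and GDF15, are hormones of nutrient and cell stress. FGF21 was at 3.09, 2.51, 3.12 and 6.22 TPM against 0.801 TPM, and GDF15 at 3.84, 1.80, 1.16 and 5.37 against 0.257 TPM, which was 5 reads. The EGFP library had the highest level of both hormones.

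Several genes of the response were not members. ATF4 itself, which is controlled mostly through translation, was at 1251, 1511, 1474 and 1635 TPM against 1210 TPM in pUC19. DDIT3, the factor CHOP, was at 78.7, 54.4, 49.1 and 113.2 against 29.9 TPM, short of 2-fold in the DNMT3A and DNMT3B libraries. CHAC1, which degrades glutathione, was at 96.1, 60.0, 75.8 and 141.1 against 42.0 TPM. SESN2, a sestrin that both ATF4 and p53 can induce, was at 254.0, 589.3, 588.7 and 369.5 against 139.8 TPM, short of 2-fold in DNMT1 alone. In the fit against pUC19 the member NUPR1, which the rule had chosen on that contrast, had a log2 fold change of 2.14.

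Genes of amino acid supply, many of them also ATF4 targets, were mostly no members. No gene of 28 in the list of amino acid synthesis and one-carbon enzymes was a member, with a median log2 ratio of -0.05. ASNS, asparagine synthetase, was at 626.5, 412.0, 391.1 and 870.7 TPM against 446.1 TPM, and PSAT1 of serine synthesis at 478.5, 371.4, 385.5 and 726.1 against 462.7 TPM. For both genes the DNMT3A and DNMT3B libraries lay below pUC19 and EGFP above it. Among 25 amino acid transporters SLC1A4, which carries alanine, serine and cysteine, was a higher member at 38.1, 31.9, 38.4 and 66.9 against 15.8 TPM. SLC38A9, the lysosomal arginine sensor, was a lower member at 10.4, 9.30, 8.70 and 12.0 against 24.8 TPM. The unfolded protein response of the endoplasmic reticulum, 29 genes, held no member and had a median log2 ratio of -0.16.

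Promoters of the higher members were searched for short binding motifs, in the 250 bases before the GENCODE canonical transcript start of each matched gene (GRCh37, both strands). The core TGATGNAA, at which ATF4 and CEBP proteins bind together, lay in 9 of 104 higher windows (8.65%), in 3 of 189 lower windows (1.59%) and in 170 of 13533 windows of all genes (1.26%). Windows are shown for 5 of the 9 higher members and 1 of the 3 lower members, with the match in capitals. They were picked after they were seen, as those of genes described here. They are written on the gene's own strand.
FGF21: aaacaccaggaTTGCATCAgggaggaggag
INHBE: catcctctttcTTGCATCAtgcgtgtccac
JDP2: atagccggggcTGATGCAAcccgtccc
NUPR1: aaggggccagaTTGCATCAgacagggcctg
IL20RB: ccactccctgcTGATGCAAcatctgggttt
IARS (lower): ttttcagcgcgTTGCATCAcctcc
They lie on GRCh37 at chr19:49258716-49258745 (plus strand, FGF21), chr12:57848849-57848878 (plus, INHBE), chr14:75894698-75894724 (plus, JDP2), chr16:28550368-28550397 (minus, NUPR1), chr3:136676738-136676767 (plus, IL20RB) and chr9:95055980-95056003 (minus, IARS). The match began 54, 230, 16, 91, 76 and 13 bases before the start, in that order. These 6 read TGATGCAA on one strand or the other, while some of the others, KLHDC7B among them, read TGATGAAA. Of the 170 genes with the core, 5.29% were higher and 1.76% lower members, and their median log2 ratio was 0.01, so most genes with the core were no members. In the integrated stress response list 6 of 26 windows held it, those of ATF3, CHAC1, FGF21, JDP2, NUPR1 and PPP1R15B, of which 3 were members. A match is a description of the sequence and does not show that a factor binds there.

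The remaining promoter of the group to be shown is that of PPP1R15A, which holds a full cyclic AMP response element, TGACGTCA, a sequence that ATF and CREB factors bind.
PPP1R15A: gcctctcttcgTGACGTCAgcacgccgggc
It lies at chr19:49375609-49375638 (plus strand, GRCh37) and the match began 58 bases before the start. This element was in 1.92% of higher, 2.12% of lower and 3.0% of all windows.

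Of 36 genes in the list of heat shock proteins and co-chaperones, 3 were higher members (8.33%, against 0.81% of all genes) and none was lower. DNAJB1, the HSP40 that works with HSP70, stood at 499.8, 264.7, 321.4 and 188.4 TPM in the DNMT1, DNMT3A, DNMT3B and EGFP libraries against 92.2 TPM. HSPA2, an HSP70 of the testis, was at 7.78, 9.16, 10.4 and 7.59 against 3.47 TPM. HSPA6, an HSP70 that is nearly silent without stress, was at 11.5, 1.15, 1.47 and 0.698 against 0.235 TPM. It reached a mean of 1 TPM only through the DNMT1 library, and had 21 reads in EGFP against 10 in pUC19. The share of members in this list, and the counts of motifs and single-exon genes below, include HSPA6 and are limited in that way. The DNMT1 library was the highest of the 4 for DNAJB1 and HSPA6, as it was for HSPA1B, which was no member. The list's median log2 ratio was 0.24, with 15 genes above and 6 below pUC19 in all 4 fusions, and the fit called none of 39. HSF1, at 103.2, 113.9, 115.4 and 106.7 against 93.0 TPM, stood close to pUC19 in all fusions.

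The heat shock element, searched as GAANNTTC, lay in 6.73% of higher, 2.12% of lower and 3.63% of all windows. It was in 16 of 36 windows of the chaperone list, of which DNAJB1 and HSPA6 were members. Each of their windows held it at 2 places, shown here in capitals.
DNAJB1 near: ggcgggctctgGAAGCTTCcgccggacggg
DNAJB1 far: cgggcggggcgGAAGGTTCtggagggggct
HSPA6 near: gaaaggttcgcGAAAGTTCgcggcggcggg
HSPA6 far: ccgatctgcccGAACCTTCtcccggggtca
These stretches are chr19:14629238-14629267 and chr19:14629268-14629297 (minus strand) and chr1:161494250-161494279 and chr1:161494139-161494168 (plus strand) of GRCh37. The matches began 47 and 77 bases before the DNAJB1 start and 69 and 180 before that of HSPA6.

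Among 29 NRF2 targets and regulators HMOX1 was the one member. The list's median log2 ratio was 0.29, with 16 genes above and 6 below pUC19 in all 4 fusions. GCLM, a subunit of the enzyme that starts glutathione synthesis, was at 28.5, 38.3, 43.8 and 38.9 TPM against 19.8 TPM, and NQO1, a quinone reductase, at 6.86, 9.48, 9.76 and 9.26 against 5.30 TPM. Both lay above pUC19 in all 4 fusions, and only GCLM in the DNMT3B library reached 2-fold. TXNRD1, thioredoxin reductase, was at 103.8, 97.0, 110.9 and 167.1 against 93.9 TPM. KEAP1, the protein that holds NRF2 down, was at 86.8, 158.9, 166.5 and 137.2 against 58.0 TPM. MAFG, a small partner of NRF2, was at 32.7, 44.4, 49.7 and 40.7 against 16.5 TPM and narrowly missed the 2-fold rule in DNMT1. The antioxidant response element core, TGACNNNGC, was in 15.4% of higher, 10.1% of lower and 12.0% of all windows. It was in 6 of 29 windows of the NRF2 list, and that of HMOX1 was not among them.

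Apart from LOC genes and open reading frames named by chromosome, with 5 higher members each, every remaining list held at most 2 higher members. CDKN1A, the inhibitor p21 that halts the cell cycle, was at 43.8, 53.7, 65.0 and 42.7 TPM against 20.1 TPM, while the 28 genes of the p53 list had a median log2 ratio of 0.01. DYRK1B, a kinase of quiescent cells, was at 52.5, 66.6, 65.9 and 64.7 against 19.9 TPM. TEF, a PAR leucine zipper factor whose level cycles with the circadian clock, was at 15.8, 20.3, 24.7 and 27.4 against 7.72 TPM. ZBTB7B, the zinc finger factor ThPOK, was at 24.1, 46.9, 47.7 and 28.0 against 11.3 TPM, and ZNF219 at 19.9, 24.5, 19.4 and 16.9 against 7.92 TPM. STAC3, a muscle calcium channel adaptor, and VPS9D1 lay between 5.50 and 8.22 TPM in the fusions and at 1.95 and 1.72 TPM in pUC19. ISG20, an interferon-induced exonuclease, was at 2.82, 3.95, 3.10 and 1.46 against 0.579 TPM and was the one member of 22 interferon-stimulated genes and RNA sensors. TNFRSF10D, a decoy receptor for TRAIL, was at 10.7, 20.9, 21.5 and 14.9 against 5.22 TPM.

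Among lower members of at least 5 TPM, IRS4, CA2 and MYC led by the fold in their least changed library. IRS4, an adaptor of insulin and IGF-1 receptors that is abundant in this cell line (GRCh37 chrX:107963176-107979793, minus strand, 2 exons), stood at 76.5, 70.5, 66.3 and 68.2 TPM in the DNMT1, DNMT3A, DNMT3B and EGFP libraries against 395.9 TPM in pUC19. CA2, a cytosolic carbonic anhydrase, was at 99.1, 98.9, 102.9 and 67.5 against 489.4 TPM, and MYC, the growth transcription factor, at 88.2, 73.8, 65.5 and 75.5 against 386.8 TPM. HNRNPL, a splicing regulator that binds CA repeats (chr19:39327010-39340626, minus strand, 13 exons), was at 188.7, 144.3, 149.2 and 168.1 against 655.1 TPM. UCHL3, a ubiquitin hydrolase, was at 42.7, 57.3, 55.5 and 38.7 against 197.3 TPM. In each of these all 4 fusions lay well below pUC19. Below 5 TPM, DHRS2, a short-chain dehydrogenase, stood at 2.03, 1.38, 0.727 and 1.92 against 11.2 TPM, and its fusions were further apart than those of IRS4.

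Others of the leading lower genes had lower levels. ATXN7L3B, a cytoplasmic relative of a SAGA deubiquitinase subunit, was at 17.1, 10.5, 11.4 and 19.9 TPM against 81.8 TPM. PDE9A, a cyclic GMP phosphodiesterase, was at 10.0, 4.85, 5.87 and 6.11 against 40.5 TPM, and MARS2, the mitochondrial methionyl-tRNA synthetase, at 4.27, 5.42, 5.15 and 5.42 against 19.2 TPM. MARVELD1, a membrane protein, was at 13.7, 15.05, 16.1 and 15.4 against 56.4 TPM. SELO, a mitochondrial selenoprotein, and the nucleosome assembly relative TSPYL4 lay between 4.72 and 9.58 TPM in the fusions and at 30.9 and 20.2 TPM in pUC19. EIF3J-AS1, a transcript antisense to EIF3J, was at 3.38, 3.70, 3.29 and 3.18 against 15.5 TPM. The strand of the reads was not used in any stated way, so an antisense gene and its partner cannot be told apart where they overlap.

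By pathway, cytosolic aminoacyl-tRNA synthetases held 2 lower members of 20 genes (10.0%, against 1.52% of all genes) and no higher one. YARS, the tyrosyl enzyme (GRCh37 chr1:33240840-33282959, minus strand, 13 exons), was at 163.8, 169.9, 169.3 and 170.8 TPM against 476.1 TPM, and IARS, the isoleucyl enzyme, at 137.9, 109.3, 95.6 and 117.2 against 353.9 TPM. VARS, the valyl enzyme, was at 79.5, 84.6, 84.4 and 95.01 against 169.8 TPM and missed the rule in EGFP. YARS varied little among the fusions. In the fit against pUC19 the log2 fold change was -1.45 for YARS and -1.56 for IARS. The rule had chosen both on that contrast. The list's median log2 ratio was -0.20, with 3 genes above and 9 below pUC19 in all 4 fusions.

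Cholesterol synthesis and uptake held 2 lower members of 27 genes (7.41%, against 1.52% of all genes). IDI1, isopentenyl diphosphate isomerase, was at 40.5, 32.0, 33.1 and 46.2 TPM against 129.4 TPM, and SQLE, squalene epoxidase, at 50.6, 38.03, 40.3 and 43.3 against 121.8 TPM. INSIG1, the sterol-sensing partner of SREBP processing, was at 97.2, 96.0, 84.3 and 146.5 against 260.7 TPM, and HMGCS1 at 28.8, 26.7, 28.0 and 35.3 against 62.4 TPM. MSMO1 was at 26.4, 18.7, 19.1 and 17.4 against 51.7 TPM. INSIG1, HMGCS1 and MSMO1 were lower than pUC19 in every fusion and missed 2-fold in 1 library. The list's median log2 ratio was -0.42, with 3 genes above and 18 below pUC19 in all 4 fusions.

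Ribosome biogenesis held 1 lower member of 38 genes (2.63%, against 1.52% of all genes). This was URB2, a nucleolar protein of large subunit assembly, at 8.56, 13.2, 12.5 and 9.70 TPM against 35.3 TPM. The list as a whole lay low, at a median log2 ratio of -0.43, with 2 genes above and 23 below pUC19 in all 4 fusions, but few of its genes reached 2-fold. Cytosolic ribosomal proteins, 85 genes, held no member and had a median log2 ratio of 0.02. Among 77 mitochondrial ribosomal proteins none was a member, and the median was -0.19, with 9 genes above and 46 below. Outside these lists, 2 abundant lower members are given that were chosen after their values were seen. RBBP7, a histone-binding subunit of chromatin complexes, was at 222.8, 257.2, 242.6 and 220.2 against 548.9 TPM, and TAF1D, a subunit of the RNA polymerase I factor SL1, at 54.7, 65.6, 61.1 and 58.9 against 148.7 TPM.

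Respiratory chain genes held 2 lower members of 81, a share of 2.47% near the 1.52% of all genes. SDHA, the flavoprotein subunit of complex II, was at 74.1, 63.9, 57.8 and 73.1 TPM against 197.2 TPM, and NDUFB6, a complex I subunit, at 37.4, 31.9, 29.9 and 41.3 against 88.1 TPM. SDHA has near-identical pseudogenes, of which SDHAP3 was a lower member too, at 8.34, 7.83, 7.70 and 6.91 against 21.4 TPM, so that the split of reads between them is uncertain. SDHAF1, an assembly factor of the same complex named after its values were seen, was at 6.83, 5.95, 4.18 and 4.94 against 17.7 TPM. The list's median log2 ratio was -0.19, with 7 genes above and 48 below pUC19 in all 4 fusions. Glycolytic enzymes, 23 genes, held no member, with a median of -0.35 and 2 genes above and 14 below. LDHA, lactate dehydrogenase, was at 499.0, 448.9, 456.3 and 563.0 against 1073 TPM.

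Receptors and ligands were members in both directions. In the TGF-beta and BMP list of 38 genes, INHBE, which encodes the activin beta E chain, and GDF15 were higher, and ID2, BMP2 and BMP8B lower. Higher members were 5.26% and lower members 7.89% of that list, against 0.81% and 1.52% of all genes. INHBE was at 23.8, 14.1, 20.1 and 55.7 TPM against 6.62 TPM, with EGFP well above the rest. ID2, an inhibitor of helix-loop-helix factors that BMP signals induce, was at 166.5, 124.9, 128.8 and 166.4 against 348.5 TPM. BMP2 was at 3.54, 5.91, 5.10 and 3.54 against 13.3 TPM and BMP8B at 2.87, 2.50, 2.38 and 2.44 against 6.07 TPM. The list's median log2 ratio was 0.00. BMP6, a BMP ligand that the list does not hold, was a lower member too and is given below. Of 21 ephrins and their receptors, the receptors EPHA7, EPHA6 and EPHB1 were lower members (14.3%). They lay between 0.925 and 4.79 TPM in the fusions and between 3.41 and 10.8 TPM in pUC19. Of 32 orphan receptors named GPR, GPR160, GPR63, GPR50 and GPR137C were lower (12.5%) and GPR19 higher (3.12%). GPR160 was the highest of the 4 lower ones, at 6.39, 3.69, 4.04 and 4.99 against 15.5 TPM.

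Further adaptors, neural genes and single members of other lists were lower. GRB14, an adaptor that binds and restrains the insulin receptor, was a lower member beside IRS4 in a list of 27, at 5.11, 3.33, 3.03 and 4.13 TPM against 10.4 TPM. The neurofilament genes NEFM and NEFL, which this line expresses, were lower at 48.1, 60.2, 60.1 and 34.3 against 193.0 TPM and at 35.6, 30.04, 29.7 and 28.9 against 90.7 TPM. They were the members of 22 neurofilament and neuronal genes. CA8, a carbonic anhydrase relative without catalytic activity, joined CA2 in a list of 7, at 10.9, 8.89, 13.8 and 9.76 against 33.1 TPM. AMOT, the angiomotin that holds YAP in the cytoplasm, was at 64.5, 106.3, 103.6 and 88.3 against 231.1 TPM. BCL2, the survival protein, was at 0.946, 0.810, 1.08 and 0.573 against 2.56 TPM. KIF20B, a mitotic kinesin, was at 15.2, 16.3, 14.95 and 18.6 against 41.1 TPM.

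Many programmes held no member. At the shares of all genes, 0.81% higher and 1.52% lower, lists of this size can hold none, so nothing is read from that. The lists of G1 and S phase genes (35, median log2 ratio -0.02) and of G2 and mitosis genes (32, 0.04) had none, and neither did hypoxia, NF-kB or autophagy genes. The 32 autophagy genes had a median of 0.27, with 16 above and 5 below pUC19 in all 4 fusions. The 15 DNA methyltransferase, UHRF1 and TET genes held none. MYC was the one member among 12 genes of the MYC and MAX network, and also the one member among 29 immediate early genes, whose median was 0.27.

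The members were also described by gene class and structure, with no test. Of those matched to GENCODE (104 of 113 higher, 189 of 211 lower and 13533 of 13921 in all), 87.5%, 87.8% and 93.6% were protein-coding. Pseudogenes made up 6.73% of higher, 3.17% of lower and 1.68% of all genes, and long noncoding RNAs 5.77%, 8.99% and 4.62%. Antisense RNAs held 2 higher and 7 lower members of 231 (0.87% and 3.03%), and LINC genes 1 and 4 of 129 (0.78% and 3.1%). LOC genes held 5 and 10 of 253 (1.98% and 3.95%), where all genes stood at 0.81% and 1.52%. Zinc finger genes named ZNF, the largest family, held 2 and 4 of 447 (0.45% and 0.89%), below the shares of all genes. Reads of pseudogenes and of families such as FAM86 and the humanin-like MTRNR2L genes can be split between near-identical copies, and MTRNR2L6, at 588.6, 501.3, 331.7 and 321.1 TPM against 151.6 TPM, is uncertain for that reason. FAM86B1, FAM86B3P, FAM86C2P and FAM86HP were all lower members.

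Protein-coding genes with a single exon made up a larger share of the members than of all genes, in both directions. They were 8.79% of the higher (8 of 91), 10.2% of the lower (17 of 166) and 2.04% of all protein-coding genes (259 of 12673). Read the other way, 3.09% of single-exon genes were higher and 6.56% lower members, against 0.28% and 1.07% of genes with 10 or more exons. Without histone genes the shares were 3.03% and 6.06%. The exon classes were not matched for expression level, and whether level accounts for these shares was not tested. The single-exon members included KCTD12, ATXN7L3B, KLHL9, MARS2, TSPYL4 and SDHAF1 on the lower side and HSPA2 and HSPA6 on the higher side. KLHL9, a ubiquitin ligase adaptor, was at 10.7, 13.2, 13.2 and 16.5 TPM against 51.8 TPM. The median number of exons was 5 for higher, 7 for lower and 9 for all genes, and the median transcript GC content was 54.9%, 46.9% and 48.6%.

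Small nucleolar and Cajal body RNA genes held 3 higher and 11 lower members of 95 at 1 TPM or more. These were 3.16% and 11.6%, against 0.81% and 1.52% of all genes. These RNAs are short and carry no poly(A) tail, and the libraries were made from RNA selected with oligo(dT), so few reads lay behind each. SNORD48 had no read in any fusion and 5.97 TPM, 6 reads, in pUC19, and with such counts no fold is given. Of 41 histone genes, most of whose mRNAs also lack a tail, HIST1H1E was a higher member (2.44%). HIST1H2AC, HIST3H2BB and HIST2H2BE were lower members (7.32%). As a class that this line should not express, 50 olfactory receptor genes summed to 11.1, 8.56, 9.02 and 11.2 RPM in the fusions and 9.68 in pUC19.

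Promoter composition was compared in the same way. The windows before the start of higher members had a median GC content of 63.0% and a median ratio of observed to expected CpG of 0.66, against 66.8% and 0.84 for lower members and 66.4% and 0.84 for all genes. A ratio of at least 0.6, a usual mark of a CpG island, was found in 57 of 104 higher (54.8%), 156 of 189 lower (82.5%) and 11307 of all windows (83.5%). The E-box CACGTG, to which MYC and MAX bind, was in 12.5% of higher, 6.88% of lower and 9.04% of all windows, and the AP-1 site TGANTCA in 5.77%, 1.59% and 3.21%. These shares were not tested.

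The fusions were also compared with one another. The DNMT3A and DNMT3B libraries were compared with the DNMT1 and EGFP libraries, 2 against 2, by edgeR's quasi-likelihood test across all genes. The pUC19 library was not in this fit, but the member rule used the same 4 fusion libraries, so the counts over members are a description only. Over all 15332 genes tested, 6.90% were higher and 4.15% lower in the DNMT3 fusions at an adjusted p below 0.05. Of 109 higher members tested, 7 were called up and 7 down (12.8%), and of 196 lower members none was up and 13 were down (6.63%), against 11.1% of all genes. The median log2 difference was 0.15 for higher members, -0.19 for lower members and -0.01 for all genes. Since the rule bounds how near to pUC19 each library of a member can lie, nothing is read from these shares. The 13 lower members called were all further from pUC19 in the DNMT3 fusions. All 4 libraries were within 2-fold of each other for 75 of 113 higher and 165 of 211 lower members, and for 86.5% of all genes of at least 1 TPM. The 2 groups were chosen with the pattern among these libraries known, and leaving out a DNMT3 library left very few calls, 18 without DNMT3A and 53 without DNMT3B.

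In that comparison the p-values only order the members, since its groups were chosen with the pattern known and each held 2 different constructs. HMOX1 was the higher member with the smallest p, at a log2 difference of 1.25 (adjusted p = 0.00729 by edgeR). AKNA followed at -1.02 (adjusted p = 0.00809) and ZBTB7B at 0.81 (adjusted p = 0.00828), both by edgeR. HMOX1, ZBTB7B, TEX19, RIBC2 and TNFRSF10D were higher with the DNMT3 fusions, and AKNA, GDF15 and INHBE with DNMT1 and EGFP. Of the stress response members only GDF15 passed the test, at -1.66 (adjusted p = 0.024). TRIB3 had a difference of -0.37 (adjusted p = 0.136), PPP1R15A of 0.42 (adjusted p = 0.149) and NUPR1 of 0.06 (adjusted p = 0.892). On the lower side the smallest p belonged to LOC100129034 at -1.53 (adjusted p = 0.00921), SLC5A3, the myo-inositol transporter, at -1.24 (adjusted p = 0.00995) and ATXN7L3B at -0.81 (adjusted p = 0.0118). SLC5A3 was at 1.79, 0.936, 0.844 and 2.27 TPM in the DNMT1, DNMT3A, DNMT3B and EGFP libraries against 6.33 TPM in pUC19. IRS4 and YARS did not pass, with differences of -0.14 (adjusted p = 0.535) and -0.03 (adjusted p = 0.87).

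**Figure D2:**
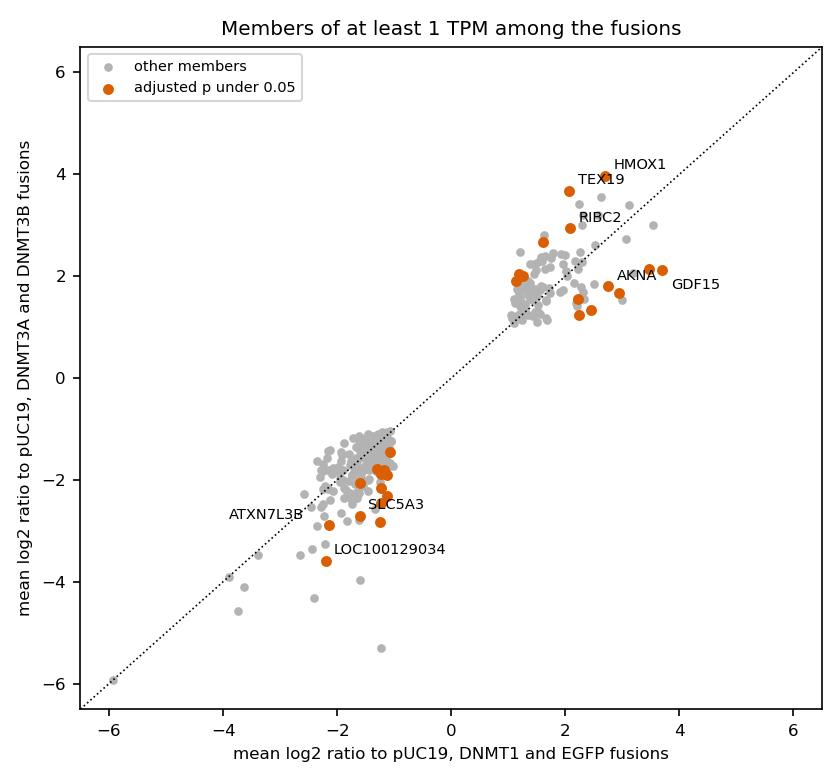
Each dot is a member of at least 1 TPM, with its mean log2 ratio to pUC19 in the DNMT1 and EGFP fusions on the horizontal axis and in the DNMT3A and DNMT3B fusions on the vertical axis. Orange dots passed the test between these pairs of libraries, and the dotted line marks equal ratios. HMOX1, TEX19 and RIBC2 lie above the line and AKNA and GDF15 below it, while most grey dots stay near it.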

How the data were processed

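RNA was sequenced from 5 HEK293T libraries, 1 per group, so the groups have no replicates. Per the study's methods, the authors selected mRNA with oligo(dT), sequenced it on an Ion Proton, removed adaptors and short or low-quality reads, mapped the rest to RefSeq transcripts of hg19 with tmap and kept uniquely mapped reads. The deposited tables give for each gene the read count, the TPM (reads per transcript length, scaled) and the percent of the transcript covered, all from the authors, with no pooling of samples. Columns of other samples numbered 0. The deposited coverage percent was not used in a comparison.

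Ratios were taken on the log2(TPM + 0.1) scale, which understates changes of low genes. Counts were tested with edgeR 4.0.16 in R 4.3.3 (TMM, filterByExpr, quasi-likelihood, Benjamini-Hochberg), with DESeq2 1.42.0 as an alternative, and the fits were checked on simulated data. Coordinates are GRCh37 with GENCODE transcripts matched by gene identifier and symbol. Gene names in the text are PLAU, the 15 members per direction of at least 5 TPM with the largest fold in their least changed fusion, up to 6 members per list, the 3 per direction with the smallest p between fusions, and genes at the 2-fold edge. Other genes named (non-members of lists, DNMT and marker genes, single-exon, FAM86 and pseudogene members, SNORD48) were chosen after their values were seen. The members and lists were chosen with earlier results of these data known. Scaling, pseudocount, threshold, filter and leaving out each fusion were varied.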

Additional observations from a re-analysis of the deposited data

Results flagged for a closer look

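The 27 members of at least 1 TPM that differed between the pair of DNMT3 fusions and the other two are given here by their log2 difference, DNMT3 minus the others, from the edgeR test with 2 libraries against 2. The pattern among the libraries was known when the groups were chosen. Of the members tested, 12.8% of the higher and 6.63% of the lower ones were called, against 11.05% of all genes. Nothing is read from how many members were called.

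Of them, 7 were higher members with more RNA in the DNMT3 fusions: TEX19 (1.53), HMOX1 (1.25), FAM83G (0.99), RIBC2 (0.81), ZBTB7B (0.81), LOC645166 (0.71) and TNFRSF10D (0.68). Higher members with less RNA in the DNMT3 fusions were GDF15 (-1.66), KLHDC7B (-1.58), ELSPBP1 (-1.47), INHBE (-1.25), KCNK15 (-1.12), AKNA (-1.02) and FAM129A (-0.77).

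Lower members that differed were all lower still in the DNMT3 fusions. They were LAMB2P1 (-1.86), LOC100129034 (-1.53), LOC100862671 (-1.40), LINC00883 (-1.35), SLC5A3 (-1.24), FLJ42627 (-1.01), TEX15 (-0.83), ATXN7L3B (-0.81), KDM1B (-0.71), HIBADH (-0.69), NLN (-0.55), KCTD12 (-0.52) and ID2 (-0.45). KDM1B is a histone demethylase, HIBADH an enzyme of valine breakdown and NLN a peptidase. All 27 differences kept their sign in 7 of 7 alternatives, and each passed the threshold in 1 to 6 of them. The alternatives reused the same fusion libraries, some with 1 left out, and the 27 were chosen by their calls. The kept sign is therefore no separate support.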

How the results depend on the processing

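Of 658 members, 216 remained with a pseudocount of 1 TPM and 324 among genes of at least 1 TPM. A 1.5-fold threshold gave 1925 members and a 3-fold threshold 185, while TMM scaling gave 640 (203 higher, 437 lower, 616 shared) and median-ratio scaling 634 (210 higher, 424 lower, 604 shared). Leaving out 1 fusion gave 771 to 959, more since fewer libraries had to pass. The fit of the fusions against pUC19 called 118 genes, 12.7% of them higher. DESeq2 called 1041 (52.3% higher), and without the filter on low counts edgeR called 252 (25.8% higher). Leaving out 1 fusion gave 65 to 95 calls, with 29.5% higher without DNMT1, 65 calls without DNMT3A and 78 without EGFP. The comparison between fusions called 1694 genes, 2180 with DESeq2 and 1052 without the filter. Leaving out 1 library gave 18 to 3850, with 3536 without DNMT1, 53 without DNMT3B and 18 without DNMT3A. The cause of these shifts was not tested. In it DNAJB1 changed sign, with -0.32 in all 4 libraries and a range of -0.89 (without EGFP) to 0.65 (without DNMT1). Of 120 list counts, 92 stayed and 28 moved. The 6 higher members of the integrated stress response list fell to 2 at 3-fold, and the 3 chaperone members to 1 with a pseudocount of 1 TPM. Of 5 members of the TGF-beta and BMP list, the 3 lower ones fell to 1 under either other scaling. No paired analysis was possible because the labels give no replicate numbers and each group holds 1 library. With 1 library per group, no spread between cultures could be measured for pUC19.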

Other observations

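Summed over all members of either tier, the higher members made up 2660 TPM in the DNMT1, 2994 in the DNMT3A, 3299 in the DNMT3B and 2331 in the EGFP library, against 739.8 TPM in pUC19. The lower members summed to 3012, 2905, 2870 and 2973 TPM, against 9151 TPM. The sum of the lower members thus differed less between fusions than that of the higher members. Of the higher members HMOX1 had the highest mean level, at 362 to 1155 TPM in the fusions. In the DNMT1 library MTRNR2L6 (588.6 TPM) and DNAJB1 (499.8 TPM) stood above it.

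Further lower members in none of the lists are given here, chosen after their values were seen. HIBADH, an enzyme of valine breakdown, stood at 28.6, 17.9, 17.8 and 26.7 TPM in the DNMT1, DNMT3A, DNMT3B and EGFP libraries against 62.9 TPM in pUC19. PCCA, a subunit of propionyl-CoA carboxylase, was at 7.55, 9.05, 8.54 and 5.88 against 20.1 TPM, and OGDHL, a relative of oxoglutarate dehydrogenase, at 7.90, 10.8, 7.98 and 11.005 against 22.6 TPM. BMP6, a BMP ligand that the TGF-beta and BMP list does not hold, was at 7.93, 5.94, 7.03 and 7.30 against 19.7 TPM. All 4 genes were lower in every fusion, and the fusions of each lay within 2-fold of one another.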
